A study of Mus musculus with 4 samples.

Results

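Leukocyte integrins were followed in single mouse bone marrow cells as the transcripts of 6 genes and as 1 surface protein. The genes were Itgam, Itgal, Itgb2, Itga4, Itgb1 and Itgb7, found by symbol among the 32285 genes of the deposited feature lists. The protein was CD11b, the product of Itgam, read by 1 of the 15 antibody features, of which 13 were surface antibodies and 2 were hashtags. The rule lists symbols and uses no measured value. All cells were CD45.2+ Kit+ bone marrow taken 10 weeks after transplantation, with transcripts and antibodies counted in the same cells. Each of 4 groups was 1 library, a control and libraries labelled as deleted for Mll3, for Mll4 and for Mll3/4. Mll3 and Mll4 are a related pair of histone H3 lysine methyltransferases, encoded by Kmt2c and Kmt2d. The labels do not say how the genes were deleted, in which cells, in which strain or in how many donor animals. With 1 library per group no difference has a replicate check, so every interval is a 95% interval that covers counting error only and every comparison is between libraries.

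Integrins are adhesion receptors made of an α and a β chain, and neither chain reaches the surface well without its partner. The β2 chain, encoded by Itgb2 (CD18), pairs with αM, encoded by Itgam (CD11b), to form Mac-1 of neutrophils and macrophages. It also pairs with αL, encoded by Itgal (CD11a), to form LFA-1, which most leukocytes carry and which binds ICAM proteins. The α4 chain, encoded by Itga4, pairs with β1, encoded by Itgb1, to form VLA-4, the receptor for VCAM-1 and fibronectin that holds stem cells and B-cell progenitors in the marrow. It also pairs with β7, encoded by Itgb7, to form the MAdCAM-1 receptor that mast cell progenitors and gut-homing lymphocytes use.

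In GENCODE M21 on GRCm38, Itgam (ENSMUSG00000030786) lies on chromosome 7 from 128062640 to 128118491 and Itgal (ENSMUSG00000030830) on chromosome 7 from 127296260 to 127335138. Itgb2 (ENSMUSG00000000290) lies on chromosome 10 from 77530252 to 77565708 and Itga4 (ENSMUSG00000027009) on chromosome 2 from 79255426 to 79333123. Itgb1 (ENSMUSG00000025809) lies on chromosome 8 from 128685654 to 128733200 and Itgb7 (ENSMUSG00000001281) on chromosome 15 from 102215995 to 102231944. Itgb7 is on the minus strand and the others are on the plus strand. Promoters of 4 of the 6 genes were matched by symbol in RefSeq on GRCm38.p6, and Itgal and Itgb2 had no entry. The 250 bases before the start site are shown for Itgam and Itga4, because αM was highest and α4 lowest in control neutrophil-like cells, and both were low in B-cell progenitor-like cells of the library labelled Mll3/4. Capitals mark matches on either strand to GAGGAA, a core of PU.1 sites, to TGTGGT, a core of RUNX sites, or to AGATAA, a core of GATA sites, and none of these matches overlapped. Itgam is at chr7:128062390-128062639 and Itga4 at chr2:79255176-79255425, both on the plus strand.
Itgam: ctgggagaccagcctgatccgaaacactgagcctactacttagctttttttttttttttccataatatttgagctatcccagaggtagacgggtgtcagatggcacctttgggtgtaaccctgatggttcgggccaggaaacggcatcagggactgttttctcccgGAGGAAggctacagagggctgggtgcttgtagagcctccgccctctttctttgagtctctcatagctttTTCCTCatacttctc
Itga4: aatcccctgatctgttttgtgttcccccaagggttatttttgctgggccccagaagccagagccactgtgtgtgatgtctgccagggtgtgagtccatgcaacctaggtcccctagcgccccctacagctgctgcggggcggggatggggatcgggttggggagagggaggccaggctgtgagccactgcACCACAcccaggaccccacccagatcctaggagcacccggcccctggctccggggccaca
The Itgam window held GAGGAA 84 bases before the start and its reverse complement TTCCTC 15 bases before it. The Itga4 window held ACCACA, the reverse complement of TGTGGT, 60 bases before the start. Among 32851 promoter windows of this length, 23.25% held GAGGAA, 14.05% held TGTGGT and 9.988% held AGATAA on either strand. The Itgb1 window held GAGGAA 9 bases before the start, and the Itgb7 window held none of the 3. A match describes the letters and is not evidence of binding.

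The libraries held 6622 to 10001 barcodes, and 5350 to 7146 cells were kept. Library totals ran from 36413830 gene UMIs in the library labelled Mll4 to 174795636 in control, and median depth was 15754 UMIs in control, 16963.5 in the library labelled Mll3, 5142 in the library labelled Mll4 and 9965 in the library labelled Mll3/4. Pairs of libraries shared 9 to 24 barcodes, at most 0.2897% of the smaller library. Levels are given as CPM, the UMIs of a gene per 1000000 gene UMIs summed over the cells. Kmt2c was at 47.9 CPM in control, 27.2 in the library labelled Mll3, 59.2 in the library labelled Mll4 and 34.8 in the library labelled Mll3/4. Kmt2d was at 25.8, 21.6, 24.99 and 24.7 CPM in the same order. The control value lay within the intervals of the libraries labelled Mll4 (23.3 to 26.8) and Mll3/4 (23.7 to 25.9), so every direction drawn for these libraries rests on the label, and counts from the 3′ end can miss the loss of an upstream exon. Xist was at 0.519 CPM in the library labelled Mll4 and between 955 and 1839 CPM in the other libraries, so sex and label cannot be told apart there. Clusters were named from marker genes, the 6 integrin genes were left out of the clustering, and 98.7% of the library labelled Mll3/4 was B-cell progenitor-like. The Kit antibody, CD117, had a median of 55 counts in control neutrophil-like cells and 39 in T/NK/innate lymphoid-like cells, against 273 in hematopoietic stem cell and multipotent progenitor-like (HSC/MPP-like) cells, so the sorted marrow held cells with little Kit.

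Itgam and Itgb2 were highest in neutrophil-like cells in control. Itgam was at 397 CPM there (389 to 405), 28.1 CPM in granulocyte progenitor-like cells and 17.3 CPM in B-cell progenitor-like cells, and the intervals of these 3 classes were separate. Basophil/mast-like cells (16.8 CPM) and monocyte/macrophage progenitor-like cells (14.5 CPM) were not separated from B-cell progenitor-like cells by their intervals. HSC/MPP-like cells were at 8.86 CPM, megakaryocyte-like cells at 1.95 CPM and erythroid progenitor-like cells at 0.711 CPM, with 1 UMI in 50 T/NK/innate lymphoid-like cells. Behind these levels were 51 UMIs in 1671 erythroid progenitor-like cells and 9520 UMIs in 1782 neutrophil-like cells.

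Itgb2 had the same first class, with 312 CPM in neutrophil-like cells (305 to 319.5), and a different second class, with 146 CPM in T/NK/innate lymphoid-like cells. Below these came basophil/mast-like cells at 26.5, granulocyte progenitor-like cells at 21.0 and megakaryocyte-like cells at 18.4 CPM, which were not separated from each other as neighbours. Itgal was ordered otherwise, with 116 CPM in T/NK/innate lymphoid-like cells (81.1 to 162) ahead of monocyte/macrophage progenitor-like cells at 44.5 CPM and neutrophil-like cells at 44.4 CPM. HSC/MPP-like cells carried 26.6 CPM of Itgal, and erythroid progenitor-like cells were lowest at 3.54 CPM. The αL transcript was therefore found in stem and progenitor classes in which αM was low.

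The α4 transcript was lowest in the class where αM and β2 were highest. Itga4 was at 548 CPM in basophil/mast-like cells and 506 CPM in T/NK/innate lymphoid-like cells, whose intervals overlapped, and at 329 CPM in B-cell progenitor-like cells. Erythroid progenitor-like cells followed at 165 CPM, HSC/MPP-like cells at 133 CPM and granulocyte progenitor-like cells at 90.4 CPM, and neutrophil-like cells were lowest at 29.99 CPM (27.8 to 32.3). Its main partner varied least among the 6 genes, as Itgb1 ran from 161 CPM in megakaryocyte-like cells to 50.6 CPM in neutrophil-like cells. From erythroid progenitor-like cells down, no class was separated from its neighbour for Itgb1.

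Itgb7 was at 139.8 CPM in T/NK/innate lymphoid-like cells (42 UMIs, 101 to 189) and 75.4 CPM in basophil/mast-like cells (60.9 to 92.2), then 10.8 CPM in HSC/MPP-like cells and 6.58 CPM in erythroid progenitor-like cells. B-cell progenitor-like cells gave 1 UMI in 471 cells and neutrophil-like cells gave 5 UMIs in 1782 cells. Dendritic-like cells reached 50 cells in the library labelled Mll4 only, with 107 cells. There Itgb7 was at 326 CPM, Itgb2 at 305 CPM, Itga4 at 413 CPM and Itgb1 at 234 CPM, while Itgam was at 24.0 CPM.

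**Figure D1:**
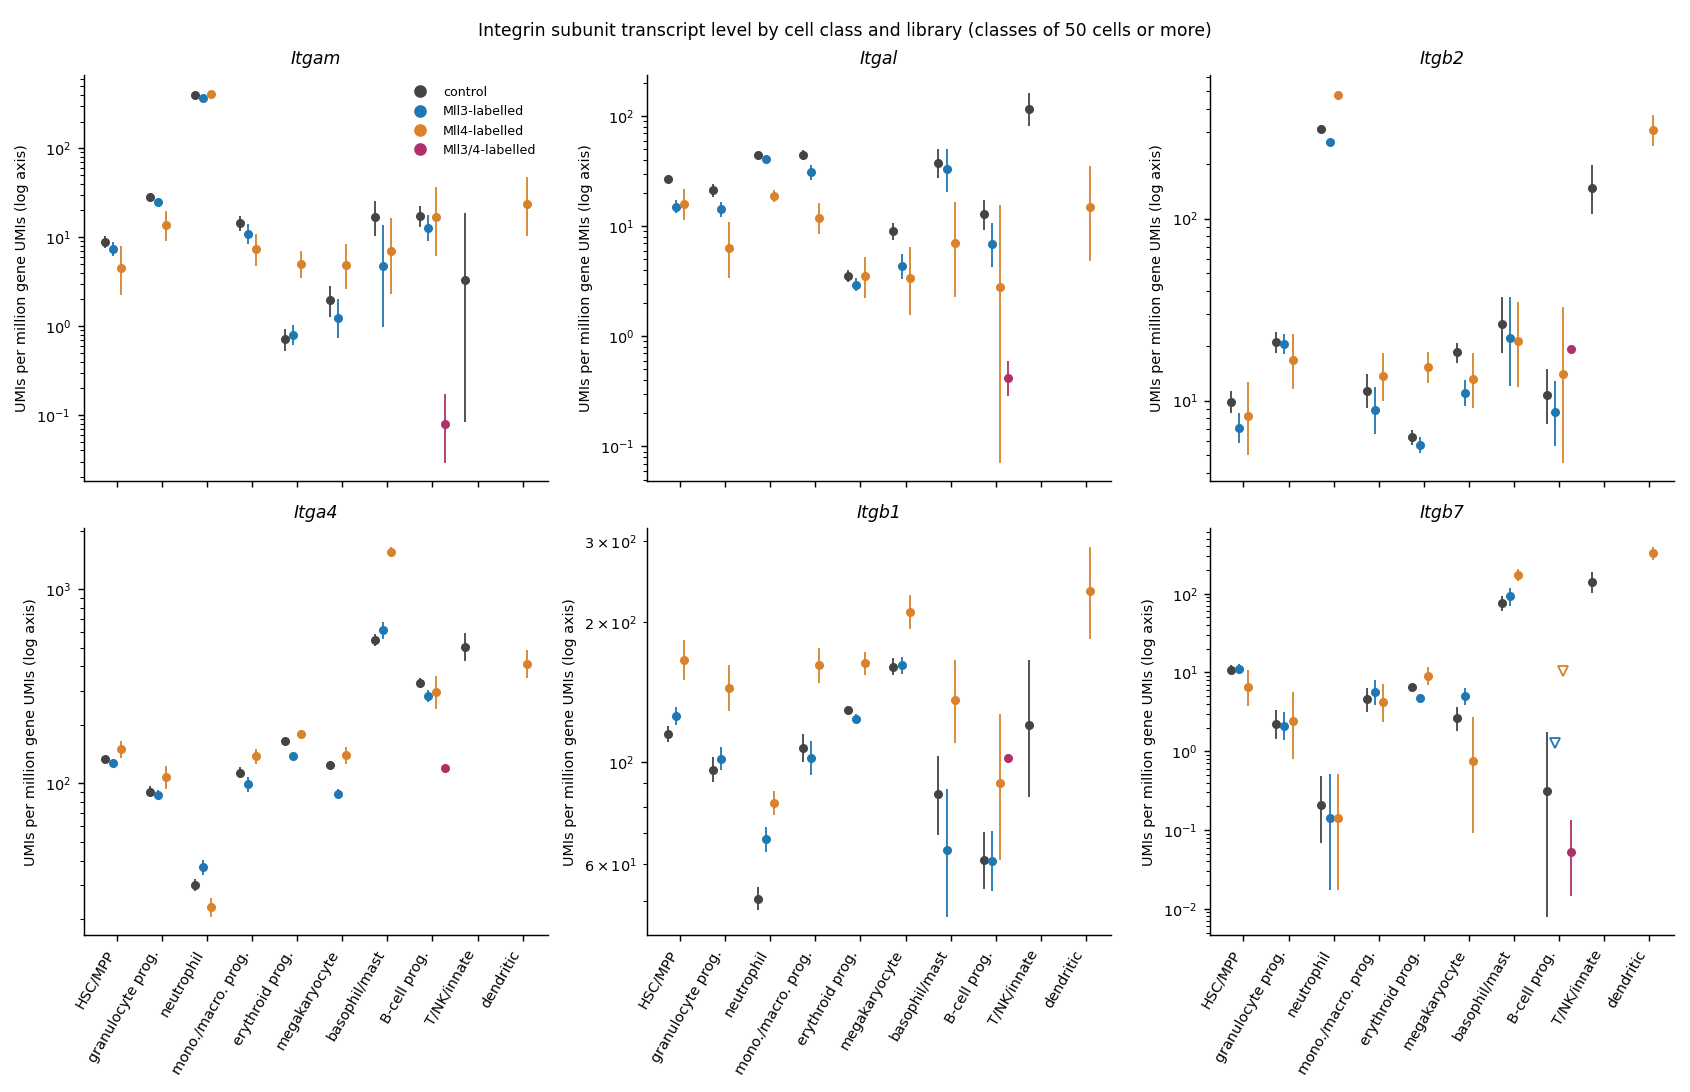
Level of each integrin transcript, in UMIs per 1000000 gene UMIs on a log axis, by cell class and library, for groups of at least 50 cells. Points are summed counts, bars are 95% Poisson intervals and open triangles mark the upper limit where no UMI was counted. Itgam and Itgb2 peak in neutrophil-like cells, at 397 and 312 CPM in control, where Itga4 is lowest.

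Over all kept cells the β2 group and Itgb7 differed between the libraries. Itgam was at 66.9 CPM in control, 42.7 in the library labelled Mll3, 179 in the library labelled Mll4 and 2.02 in the library labelled Mll3/4. Itgb2 was at 57.5, 35.0, 216 and 20.8 CPM in the same order, and Itgal at 17.6, 11.1, 12.5 and 0.889 CPM. Itga4 was nearly level at 135, 122, 133 and 121 CPM, as was Itgb1 at 112, 118, 131 and 102 CPM, and Itgb7 was at 6.15, 5.27, 10.9 and 0.541 CPM. The β2 group was thus highest in the library labelled Mll4 and lowest in the library labelled Mll3/4, except that Itgal was highest in control.

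A ratio was called when the log2 ratio of CPM plus 1 to control was at least 1 in size, a 2-fold change, with at least 20 UMIs in either library. Against control, 0 of 6 members were called in the library labelled Mll3, where 0.667% of all genes measured were past 2-fold in either direction. Itgam (2.67-fold, 2.59 to 2.76) and Itgb2 (3.76-fold, 3.64 to 3.88) were called higher in the library labelled Mll4, against 5.74% of all genes measured, although Itgam came to a log2 ratio of 0.99 with each cell thinned to 2000 UMIs and 0.95 with cells weighted equally. Itgam (33.1-fold, 28.3 to 39.0), Itgal (19.9-fold, 15.6 to 25.6), Itgb7 (11.4-fold, 8.35 to 15.9) and Itgb2 (2.76-fold, 2.62 to 2.91) were called lower in the library labelled Mll3/4, against 11.7% of all genes measured. Sums over all cells move with the makeup of a library: the share of neutrophil-like cells was 24.9% in control, 17.4% in the library labelled Mll3, 50.2% in the library labelled Mll4 and 0.347% in the library labelled Mll3/4. Fewer cells of a class and less RNA per cell cannot be told apart in these sums, so ratios within classes of at least 50 cells in both libraries are given next.

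Within neutrophil-like cells Itgam differed little between the libraries. It was at 397 CPM in control, 367 in the library labelled Mll3 and 409 in the library labelled Mll4, a ratio of 0.925 (0.894 to 0.957) and of 1.03 (0.995 to 1.06). The 24 neutrophil-like cells of the library labelled Mll3/4 were too few for a comparison and had 292 CPM. Itgb2 was at 312 CPM in control, 263 in the library labelled Mll3 and 478 in the library labelled Mll4, a ratio of 1.53 (1.48 to 1.58) in the last. The partner chains therefore did not move together: UMIs of Itgam per UMI of Itgb2 were 1.27 in control (1.23 to 1.31), 1.40 in the library labelled Mll3 (1.34 to 1.46) and 0.855 in the library labelled Mll4 (0.825 to 0.886). Such a ratio is read only as a difference between libraries, because genes differ in capture.

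The neutrophil-like cells of control and the library labelled Mll3 lay mostly in clusters 6, 7 and 8, while those of the library labelled Mll4 lay mostly in clusters 16 and 19. Cluster 19, in which Retnlg and Mmp8 of late neutrophils were at 1166 and 564 CPM, had Itgam at 566 CPM (538 to 595) and Itgb2 at 544 CPM (516 to 572) in the library labelled Mll4. Cluster 16, with Mki67 of dividing cells at 1146 CPM, had Itgam at 369 CPM and Itgb2 at 463 CPM (450 to 476). In the dividing cluster 6 of control, with Mki67 at 1071 CPM, Itgam was at 377 CPM and Itgb2 at 307 CPM (299.4 to 316). Cluster 8 of control, with Mki67 at 328 CPM, had Itgam at 455 CPM (430.0 to 481) and Itgb2 at 299.9 CPM. Between the dividing clusters 6 and 16 the intervals of Itgam overlapped and those of Itgb2 did not. After each cell was thinned to 2000 UMIs, both transcripts were found together in 26.0% of control neutrophil-like cells (455 of 1752) and in 35.3% of those in the library labelled Mll4, and the products of the separate shares of the transcripts were 26.1% and 34.7%. Itgb2 was found, with or without Itgam, in 46.6% of control cells and in 61.4% of those in the library labelled Mll4.

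Itgal was the member called lower in the largest number of classes. In the library labelled Mll4 it was below control in all 8 classes that could be compared, and called lower in 6 of them. In neutrophil-like cells it was at 44.4 CPM in control, 40.7 in the library labelled Mll3 and 18.9 in the library labelled Mll4, 2.35-fold lower in the last (2.05 to 2.70), where 2.0% of all genes measured were called lower. In monocyte/macrophage progenitor-like cells it was at 44.5, 31.0 and 11.9 CPM, 3.74-fold lower in the library labelled Mll4 (2.68 to 5.36), against 3.21% of genes. With finer clusters (Leiden resolution 2), a cluster of this class held 485 Mll4-labelled cells and 1 control cell, and another held 55 and 197. The part of this cluster mix in the ratios of this class was not tested. In granulocyte progenitor-like cells it was at 21.2, 14.3 and 6.36 CPM, 3.33-fold lower (1.91 to 6.36), against 2.73% of genes. The order control, Mll3-labelled, Mll4-labelled was the same in these 3 classes, although the interval of the Mll3-labelled ratio included no difference in neutrophil-like cells.

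Itgal was also called lower in the library labelled Mll4 in basophil/mast-like cells (37.7 to 7.07 CPM, 47 and 5 UMIs, 4.85% of genes), megakaryocyte-like cells (8.98 to 3.38 CPM, 2.16% of genes) and B-cell progenitor-like cells (41 and 1 UMIs, 8.52% of genes). The interval of the last ratio, 0.218 (0.00539 to 1.28), included no difference. HSC/MPP-like cells were at 26.6 CPM in control, 15.1 in the library labelled Mll3 and 16.0 in the library labelled Mll4, within 2-fold with intervals below control for both. Erythroid progenitor-like cells were at 3.54, 2.95 and 3.51 CPM, with intervals that included no difference. Of the 6432 genes measured in all 8 classes, 19 genes (0.295%) were called lower in 6 or more classes of the library labelled Mll4, Itgal among them.

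Itgal was also below control in all 8 classes of the library labelled Mll3, with the interval clear of no difference in 5 and no call. Of the 6292 genes measured in all 8 classes there, 9.69% were lower in every class, so the direction alone is common. These comparisons share the control cells. UMIs of Itgal per UMI of Itgb2 in monocyte/macrophage progenitor-like cells were 3.93 in control (3.10 to 5.03), 3.49 in the library labelled Mll3 and 0.867 in the library labelled Mll4 (0.550 to 1.36), and in neutrophil-like cells 0.142, 0.155 and 0.0396.

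**Figure D2:**
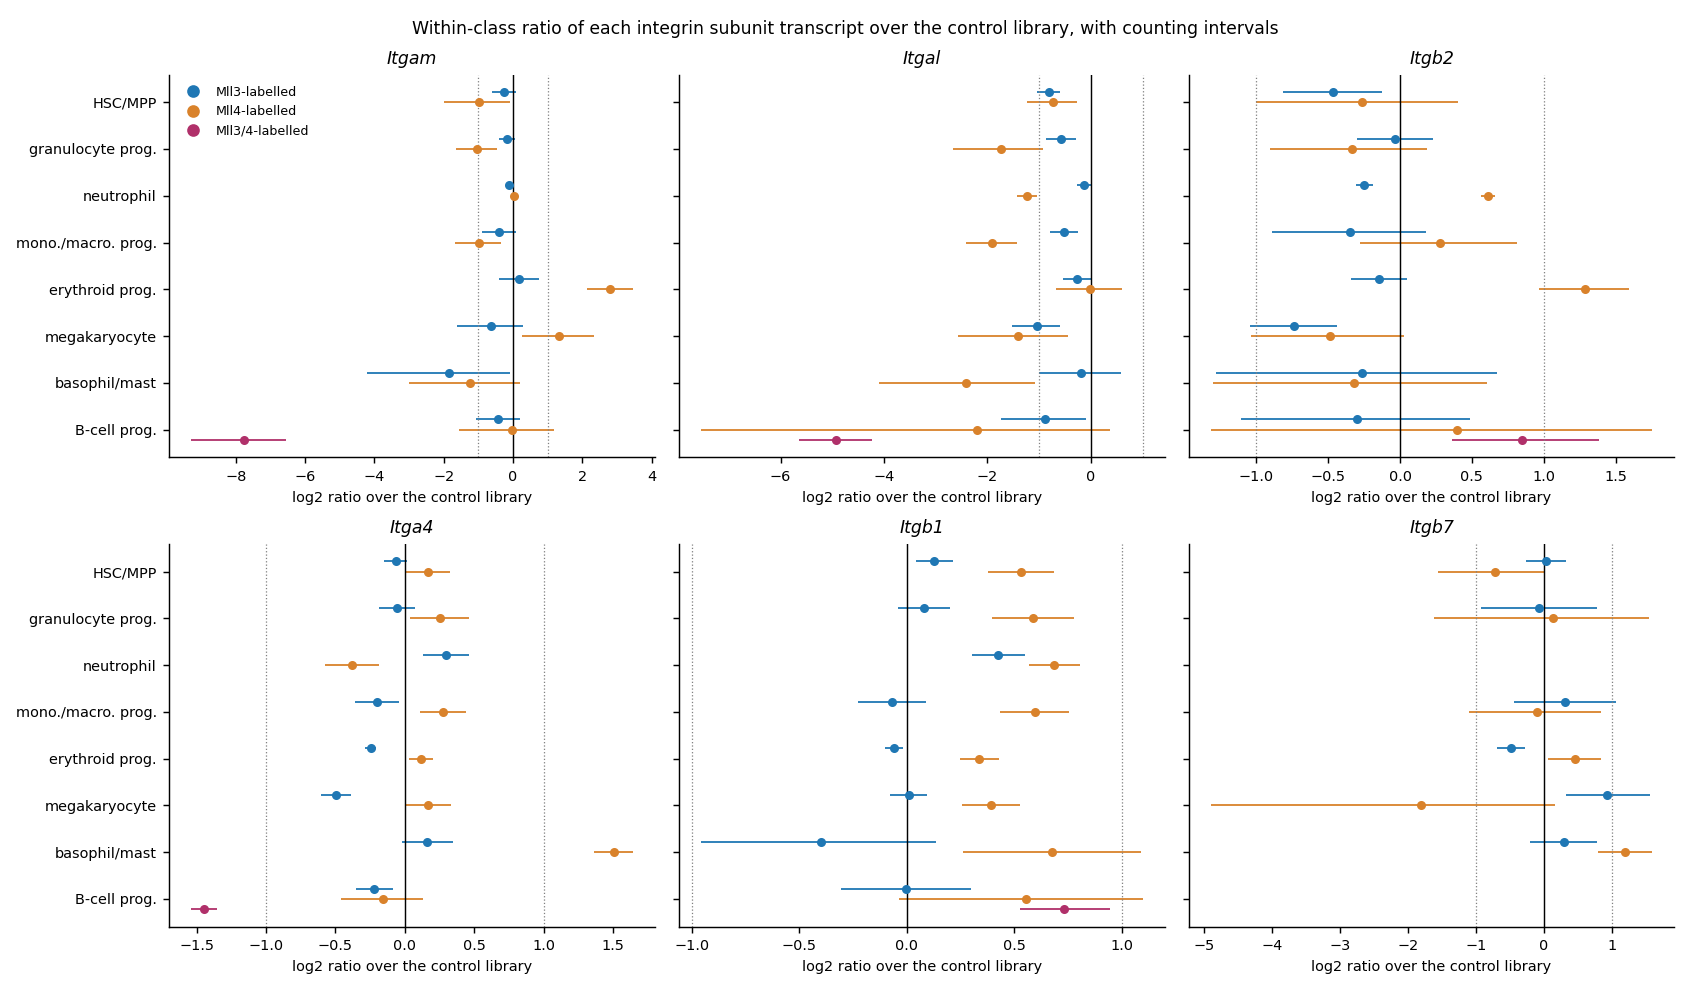
Log2 ratio of each transcript to the control library within cell classes of at least 50 cells in both libraries, with 95% counting intervals and no pseudocount. Dotted lines mark a 2-fold difference. Itgal of the library labelled Mll4 lies left of 0 in every class, at 3.33-fold lower in granulocyte progenitor-like cells, and Itgb1 of that library lies right of 0 in every class.

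In each single library 46 ratios of a member within a class were measured. Of these, 0 were called higher and 1 lower in the library labelled Mll3, Itgam in basophil/mast-like cells, at 16.8 CPM in control and 4.72 CPM (3 UMIs) there, a ratio of 0.280 (0.0535 to 0.938) beside 2.99% of genes called lower in that class. In the other 7 classes of that library, where none was called, the share of all genes past 2-fold in either direction was 0.605% in neutrophil-like, 0.713% in erythroid progenitor-like, 0.824% in granulocyte progenitor-like, 0.908% in HSC/MPP-like, 1.2% in monocyte/macrophage progenitor-like, 1.58% in megakaryocyte-like and 2.31% in B-cell progenitor-like cells. For the library labelled Mll4, 4 were called higher and 8 lower, and 5 of the 8 lower had intervals clear of no difference, all of Itgal. Apart from Itgal, those called lower were Itgam in basophil/mast-like cells (5 UMIs) and Itgb7 in megakaryocyte-like cells (2 UMIs), whose intervals included no difference. HSC/MPP-like cells had no member called in the library labelled Mll4, where 7.89% of all genes were called.

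Among the classes with little Itgam, the library labelled Mll4 was higher in erythroid progenitor-like cells. Itgam was at 0.711 CPM in control (51 UMIs), 0.804 in the library labelled Mll3 and 4.97 in the library labelled Mll4 (34 UMIs), a log2 ratio of 2.81 without a pseudocount (2.14 to 3.46). Itgb2 was at 6.30, 5.70 and 15.4 CPM, a ratio of 2.44 (1.95 to 3.02), and 3.91% of all genes were called higher there. Under scaling by trimmed means the log2 ratio of Itgb2 was 0.91, under the 2-fold line, and with thinned cells it was 0.50. The summed level of 8 neutrophil markers in the same cells was 349 CPM in control, 322 in the library labelled Mll3 and 2004 in the library labelled Mll4, with all 8 markers found in each. At the ratio of Itgam to these markers in neutrophil-like cells, that level goes with 0.640 CPM of Itgam in control and 3.54 CPM in the library labelled Mll4, of the 0.711 and 4.97 CPM counted. The part of neutrophil RNA in these ratios was not tested.

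In granulocyte and monocyte/macrophage progenitor-like cells, by contrast, Itgam was below control in the library labelled Mll4 without a call. It was at 28.1 CPM in control, 24.9 in the library labelled Mll3 and 13.7 in the library labelled Mll4 in granulocyte progenitor-like cells, 2.05-fold lower (1.39 to 3.14), and under 2-fold once 1 was added to each CPM. In monocyte/macrophage progenitor-like cells it was at 14.5, 10.96 and 7.32 CPM, 1.98-fold lower (1.26 to 3.21). The neutrophil markers moved the other way in both classes, from 3392 to 7662 CPM and from 555 to 3265 CPM between control and the library labelled Mll4. In cluster 3 Itgam was at 42.8 CPM in control against 38.2 CPM in the library labelled Mll4, and in cluster 4 at 13.5 CPM (10.6 to 17.0) and 7.39 CPM (3.82 to 12.9), while 278 of 482 control and 70 of 254 Mll4-labelled granulocyte progenitor-like cells lay in cluster 3.

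CD11b protein was read against a threshold of 52.3 antibody counts, the crossing point of a 2-component mixture fitted in control. The positive share was 26.6% of control cells (25.5 to 27.6%), 19.8% in the library labelled Mll3 (18.7 to 20.8%), 52.3% in the library labelled Mll4 (50.9 to 53.6%) and 0.549% in the library labelled Mll3/4 (38 cells, 0.389 to 0.753%). The positive cells were neutrophil-like in 93.3% of cases in control, 87.8% in the library labelled Mll3 and 96.0% in the library labelled Mll4. Of the 38 positive cells in the library labelled Mll3/4, 24 were neutrophil-like and 9 were B-cell progenitor-like. The positive share thus followed the share of neutrophil-like cells in each library.

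Within neutrophil-like cells 99.4%, 99.5% and 99.9% were positive in control, the library labelled Mll3 and the library labelled Mll4. Their median CD11b count was 310 in control, 344.5 in the library labelled Mll3 and 382 in the library labelled Mll4, and 745 in the 24 cells of the library labelled Mll3/4. The median over all surface antibodies in these cells differed too, at 1354.5, 1491.5, 1450.0 and 2469 counts in the same order, and its part in the CD11b medians was not tested. Summed over these cells, CD11b took up 25.6%, 26.3%, 29.1% and 31.7% of the surface antibody counts. Its median was 2 counts in erythroid progenitor-like control cells, where 0.299% were positive, which was taken as the background of the antibody. In the same class the median was 2 counts in the library labelled Mll3 and 4 in the library labelled Mll4, so this background differed between libraries.

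Granulocyte progenitor-like cells straddled the threshold. In them 13.3% were positive in control (10.4 to 16.6%), 19.3% in the library labelled Mll3 (16.0 to 22.8%) and 9.84% in the library labelled Mll4 (6.47 to 14.2%), with median counts of 13, 15 and 8. In the same order the medians were 16, 20 and 19 counts in cluster 3 and 10, 14 and 6 in cluster 4. Cluster 3 held 278 of 482 such cells in control and 70 of 254 in the library labelled Mll4. The part of this cluster mix in the class values was not tested. HSC/MPP-like cells were positive in 3.62%, 1.29% and 1.08% of cases, with medians of 8, 7 and 5, beside 2, 2 and 4 in erythroid progenitor-like cells. Monocyte/macrophage progenitor-like cells were positive in 0.820%, 1.18% and 0.977% of cases, although their Itgam level was above that of HSC/MPP-like cells in control. The dendritic-like cells of the library labelled Mll4 were positive in 60.7% of cases (50.8 to 70.0%) with a median of 91 counts, at an Itgam level of 24.0 CPM, against 8 counts at 13.7 CPM in granulocyte progenitor-like cells of that library. The surface antibody total of those dendritic-like cells had a median of 2583 counts against 1319.5.

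**Figure D3:**
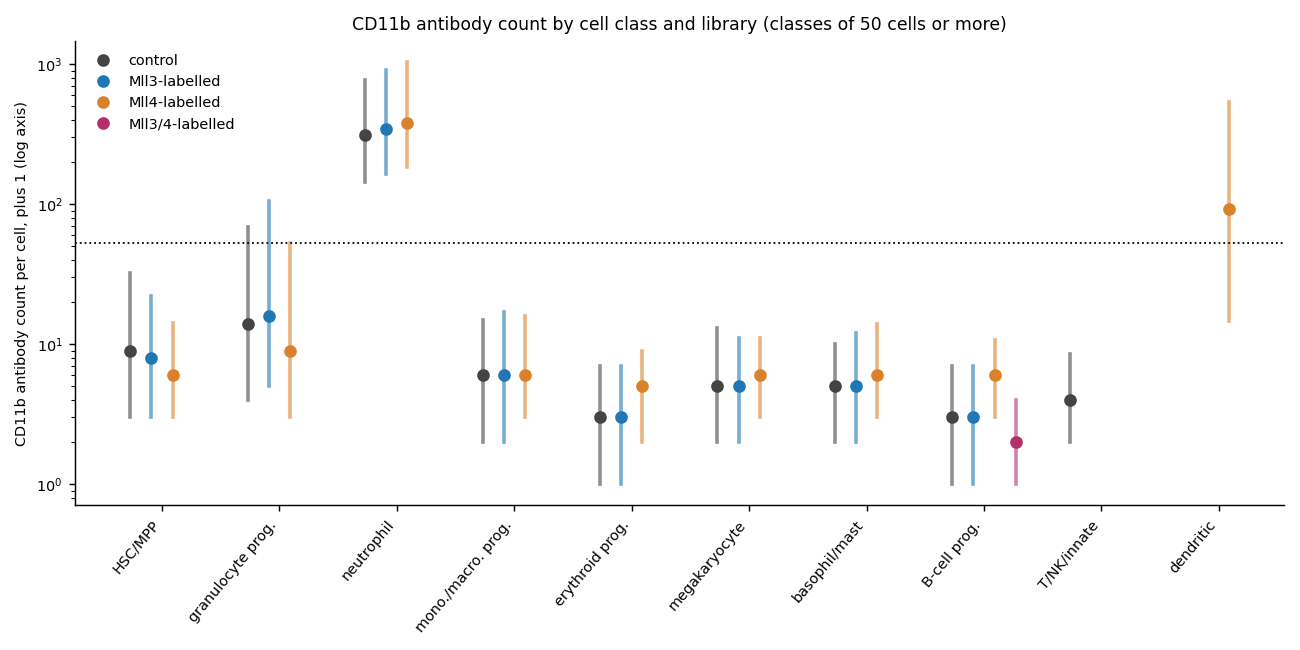
CD11b antibody count per cell plus 1, on a log axis, by cell class and library, for groups of at least 50 cells. Points are medians, bars run from the 10th to the 90th percentile and the dotted line is the positivity threshold. Neutrophil-like cells lie above the line, with medians of 310, 344.5 and 382 counts, and granulocyte progenitor-like cells reach it.

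CD11b counts were higher with an Itgam UMI in granulocyte progenitor-like cells of control and of the library labelled Mll3, and differed little by it in neutrophil-like cells. In granulocyte progenitor-like control cells thinned to 2000 UMIs, the median CD11b count was 12 in 448 cells with 0 Itgam UMIs, of which 11.2% were positive, and 32 in 29 cells with 1 UMI, of which 37.9% were positive. In the library labelled Mll3 the medians were 15 and 45 counts and the positive shares 17.8% and 44.4%. In neutrophil-like cells the medians with 0, 1 and at least 2 UMIs were 311, 312 and 307.5 counts in control and 350.5, 348 and 325.5 in the library labelled Mll3. In the library labelled Mll4 they were 378.5, 372 and 415 counts. In HSC/MPP-like cells the medians with 0 and 1 UMI were 8 and 8 counts in control and 7 and 3 in the library labelled Mll3 (16 cells with 1 UMI), and in monocyte/macrophage progenitor-like cells of control they were 5 and 2 (11 cells with 1 UMI) and in those of the library labelled Mll3 5 and 5. Spearman's rho between Itgam UMIs and CD11b counts over neutrophil-like cells was 0.0063 in 1752 control cells, -0.049 in 998 Mll3-labelled and 0.033 in 2651 Mll4-labelled cells, which are cells of 1 library each and sparse counts.

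Granulocyte progenitor-like and neutrophil-like cells were also pooled and grouped by CD11b count. In control Itgam was at 18.9 CPM below 10 counts, 19.3 CPM from 10 to 29, 138 CPM from 30 to 99, 390.5 CPM from 100 to under 300, 396 CPM from 300 to under 1000 and 410.5 CPM at 1000 or more. Itga4 was lower in the 3 upper groups than in the 3 lower groups, at 86.0, 87.0, 84.7, 25.9, 34.2 and 47.9 CPM over the same groups. From the group of 100 counts on, nearly all cells were neutrophil-like (802 of 820 in the first of these), and Itga4 went within them from 25.9 (22.9 to 29.2) to 47.9 CPM (36.8 to 61.3). In the library labelled Mll4 Itgam was at 4.82, 15.2, 214, 377, 402 and 472 CPM and Itga4 at 110.0, 100.5, 89.999, 25.9, 22.5 and 22.1 CPM. In the library labelled Mll3 Itgam was at 8.33, 13.1, 71.3, 331, 362 and 363 CPM, each below the control value. The intervals overlapped from 10 to 29 counts (9.92 to 16.9 against 15.4 to 23.9) and at 1000 counts or more (332 to 397 against 377 to 447). The group from 30 to 99 held 49 neutrophil-like cells of 133 in control, 17 of 129 in the library labelled Mll3 and 21 of 46 in the library labelled Mll4, beside its Itgam values of 138, 71.3 and 214 CPM. The group below 10 counts held 7 neutrophil-like cells of 189 in control, 4 of 188 in the library labelled Mll3 and 0 of 142 in the library labelled Mll4. The part of the class mix of these groups in the Itgam values was not tested.

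**Figure D4:**
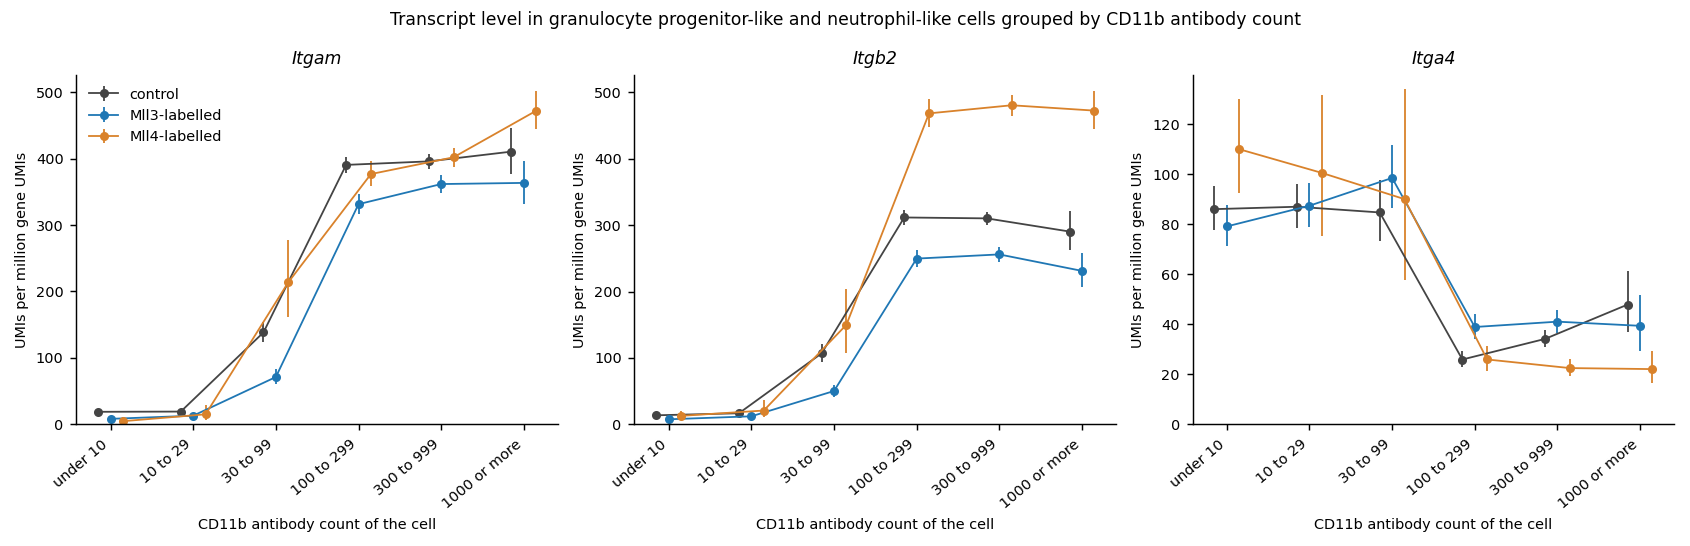
Level of Itgam, Itgb2 and Itga4, in UMIs per 1000000 gene UMIs, in granulocyte progenitor-like and neutrophil-like cells grouped by their CD11b antibody count. Points are summed counts with 95% Poisson intervals. Itgam of control goes from 18.9 CPM below 10 counts to 410.5 CPM at 1000 or more. Itga4 of control goes from 86.0 CPM below 10 counts down to 25.9 CPM from 100 to under 300, then up to 47.9 CPM at 1000 or more.

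Basophil/mast-like cells of the library labelled Mll4 had more Itga4 and Itgb7 than those of control. Itga4 was at 548 CPM in control (507 to 590), 613 in the library labelled Mll3 (554 to 677) and 1554 in the library labelled Mll4 (1464 to 1649), a ratio of 2.84 (2.58 to 3.13) in the last. Itgb7 was at 75.4, 92.7 and 173 CPM, a ratio of 2.29 (1.74 to 3.03), and Itgb1 at 85.0, 64.4 and 136 CPM, a ratio of 1.60 (1.20 to 2.13). In that class 10.6% of all genes measured were called higher. The class was not alike in the libraries: of its genes, Kit was at 306.3 CPM in control against 1615 CPM in the library labelled Mll4, the connective tissue mast cell protease Cma1 at 141 and 3129 CPM, and the basophil protease Mcpt8 at 687 and 2319.6 CPM. The summed basophil/mast markers were at 3672 CPM in control, 3257 in the library labelled Mll3 and 13257 in the library labelled Mll4, and their part in the integrin ratios was not tested. After scaling by trimmed means the log2 ratio of Itgb7 was 0.90, under the 2-fold line, and that of Itga4 was 1.22. With thinned cells they were 0.60 and 1.16.

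Elsewhere Itga4 stayed within 2-fold in the single libraries. It was lower in megakaryocyte-like cells of the library labelled Mll3, at 88.0 CPM against 124 CPM in control (1.41-fold, 1.31 to 1.52), and in erythroid progenitor-like cells, at 139 against 165 CPM. In neutrophil-like cells it was at 29.99 CPM in control, 36.9 in the library labelled Mll3 and 23.0 in the library labelled Mll4, on opposite sides of control with both ratio intervals clear of no difference. Itgb7 was higher in megakaryocyte-like cells of the library labelled Mll3, at 4.996 CPM (68 UMIs) against 2.62 CPM (35 UMIs), within 2-fold.

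Itgb1 was above control in all 8 classes of the library labelled Mll4, with the interval clear of no difference in 7, and no call. It was at 50.6 CPM in control, 67.9 in the library labelled Mll3 and 81.4 in the library labelled Mll4 in neutrophil-like cells. In HSC/MPP-like cells it was at 115, 126 and 166 CPM, and in monocyte/macrophage progenitor-like cells at 107, 102 and 162 CPM. The median log2 ratio of all genes in these comparisons lay between 0.06 and 0.25 in CPM and between -0.14 and -0.02 after scaling by trimmed means, and Itgb1 stayed above 0 in all 8 classes under both. Of the 6432 genes measured in all 8 classes, 19.2% were above that all-gene median in every class, so the pattern is common.

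The Mll3/4-labelled library could be compared with control in B-cell progenitor-like cells alone, 6830 cells against 471. Nearly all of those cells were in clusters 22 to 25 in the library labelled Mll3/4 and in clusters 0 and 15 in control, with a median of 9936 and 4389 UMIs. Itgam was at 17.3 CPM in control (55 UMIs), 12.8 in the library labelled Mll3 (37 UMIs), 16.8 in the library labelled Mll4 (6 UMIs) and 0.0791 in the library labelled Mll3/4 (6 UMIs), 219-fold lower in the last (94.3 to 621). Itgal was at 12.9, 6.95, 2.81 and 0.422 CPM, 30.6-fold lower (18.8 to 50.1). Itga4 was at 329, 282, 295 and 121 CPM, 2.73-fold lower (2.56 to 2.91). These 3 of 5 measured members were called lower, where 7.39% of all genes measured were.

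The β chains went the other way. Itgb2 was at 10.7 CPM in control, 8.68 in the library labelled Mll3, 14.0 in the library labelled Mll4 and 19.3 in the library labelled Mll3/4, a ratio of 1.80 (1.28 to 2.61). Itgb1 was at 61.3, 61.1, 89.8 and 102 CPM, a ratio of 1.66 (1.44 to 1.92). Both lay within 2-fold with intervals above control, so each α chain that was low had a β partner that was not. UMIs of Itga4 per UMI of Itgb1 went from 5.36 in control (4.60 to 6.28) through 4.62 and 3.28 to 1.19 in the library labelled Mll3/4 (1.15 to 1.22), and UMIs of Itgam per UMI of Itgb2 from 1.62 (1.04 to 2.56) to 0.00410 (0.00150 to 0.00895). Itgb7 had 1 UMI in control and 4 in the library labelled Mll3/4 and was not compared.

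Neutrophil RNA differed between the same cells. The 8 neutrophil markers summed to 1336 CPM in B-cell progenitor-like cells of control, 1031 in the library labelled Mll3, 3966.5 in the library labelled Mll4 and 40.8 in the library labelled Mll3/4, with 7, 7, 7 and 8 of the 8 markers found. At the ratio of Itgam to these markers in neutrophil-like cells this goes with 2.45, 1.72, 7.02 and 0.0581 CPM of Itgam, of the 17.3, 12.8, 16.8 and 0.0791 CPM counted. Their part in the difference was not tested beyond these values. The control Itgam lay mainly in the non-dividing cluster 0, at 38.1 CPM (28.1 to 50.5), against 3.65 CPM (1.47 to 7.52) in the dividing cluster 15, and the median CD11b count was 2 in both. The transcript in these cells thus came without CD11b counts above those of erythroid progenitor-like cells, and 1 of the 471 control cells was positive.

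Dividing and non-dividing clusters were compared apart, a split chosen after seeing the data, with Mki67 of at least 1000 CPM marking division. In non-dividing clusters (317 control and 5066 Mll3/4-labelled cells) Itgam was at 38.0 and 0.1002 CPM, Itgal at 19.8 and 0.581 CPM and Itga4 at 449 and 131 CPM. In dividing clusters (154 and 1764 cells) Itgam was at 3.65 and 0.0385 CPM (7 and 1 UMIs), Itgal at 8.34 and 0.115 CPM and Itga4 at 249.2 and 100.3 CPM. The 3 α chains were lower in the library labelled Mll3/4 in both kinds of cluster. Itgb1 was at 58.5 and 104 CPM in non-dividing and 63.1 and 96.7 CPM in dividing clusters, higher in both. For Itgb2 the ratio of the library labelled Mll3/4 to control was 1.89 in dividing clusters (1.13 to 3.41). In non-dividing clusters it was 1.44, with an interval (0.916 to 2.397) that included no difference. Within the library labelled Mll3/4 Itga4 was at 229 CPM in cluster 22 (222 to 237), 137 CPM in cluster 25, 90.6 CPM in cluster 24 and 87.6 CPM in cluster 23 (84.5 to 90.8). Dividing control cells were at 249.2 CPM (227.4 to 272.6), above all 4 values. The interval of cluster 22 overlapped theirs, but that cluster was non-dividing. Non-dividing control cells were at 449 CPM (413 to 488), above the non-dividing clusters 22 and 23.

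**Figure D5:**
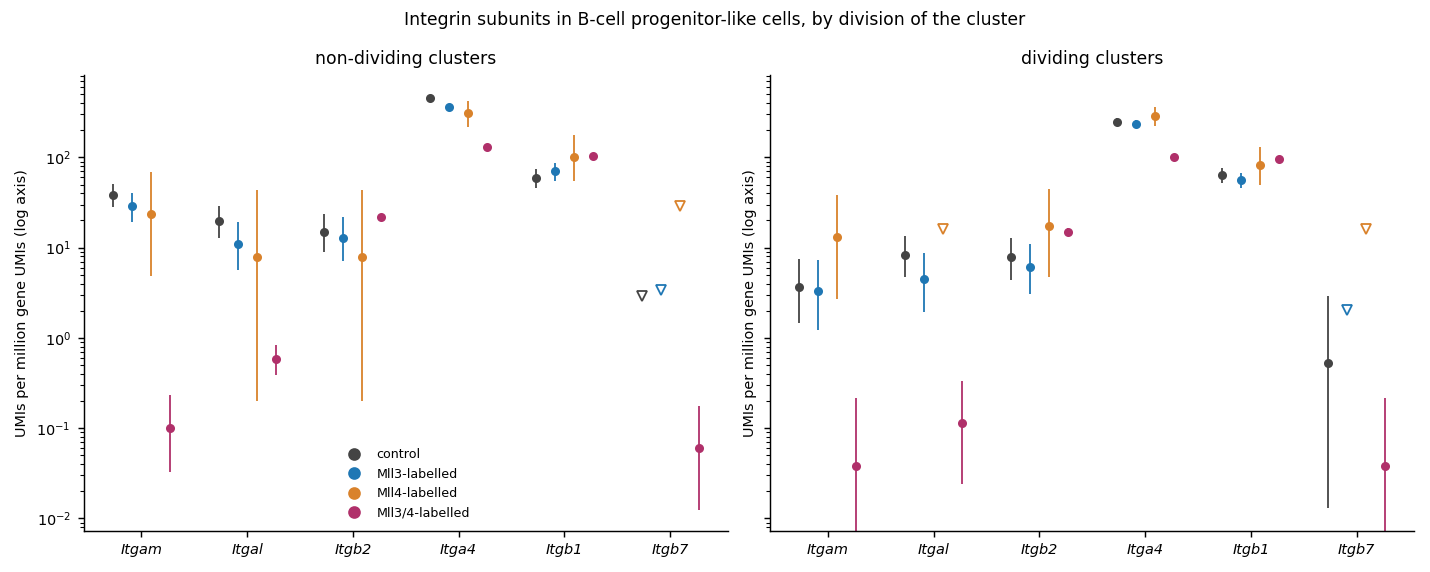
Level of the 6 transcripts, in UMIs per 1000000 gene UMIs on a log axis, in non-dividing and dividing clusters of B-cell progenitor-like cells by library. Points are summed counts with 95% Poisson intervals and open triangles mark upper limits where no UMI was counted. Itgam, Itgal and Itga4 of the library labelled Mll3/4 lie below control on both sides, at 0.1002, 0.581 and 131 CPM in non-dividing clusters.

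The series title names redundancy of Mll3 and Mll4, so the log2 ratio of the library labelled Mll3/4 was set against the sum of the single log2 ratios. In B-cell progenitor-like cells the difference from that sum was -7.31 for Itgam (-9.05 to -5.57) and -1.07 for Itga4 (-1.38 to -0.76). For Itgal it was -1.84 with an interval from -4.82 to 1.13, since the library labelled Mll4 had 1 UMI. For Itgb2 it was 0.76 (-0.71 to 2.23) and for Itgb1 0.18 (-0.40 to 0.76), both with intervals that included 0. The interval thus excluded 0 for Itgam and Itga4, with Itgam at 6 UMIs in both the library labelled Mll4 and that labelled Mll3/4. The other 3 members had 1 (Itgal), 5 (Itgb2) and 32 UMIs (Itgb1) in the library labelled Mll4. Intervals that wide cannot show whether the single ratios added up for these members. All 3 ratios share the control cells. Nearly all B-cell progenitor-like cells lay in clusters 22 to 25 in the library labelled Mll3/4. In control and the single libraries nearly all lay in clusters 0 and 15. The part of this difference between clusters in these values was not tested.

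The genes with the most similar patterns were sought among 9487 candidates over 28 groups of a class in a library, which share libraries and depth, so the correlations are descriptions. Itgam was closest to Glrx (Pearson's r 0.92), Lyz2 and Anxa1, and Itgb2 to Slfn1 (0.93), Fgr and Vasp. Itgal was closest to Tnfaip8l2 (0.86), Fcer1g and Hcst. Itga4 was closest to Strada (0.88), Arhgap18 and Vwa5a, and Itgb7 to Gpr183 (0.86), Hpgds and Ahr. Among the genes closest to Itgb1 were Foxk2 (0.84) and Rnft1. Among the members themselves r was 0.70 for Itgam and Itgb2, 0.68 for Itga4 and Itgb7, 0.46 for Itgal and Itgb2, 0.20 for Itga4 and Itgb1, and -0.44 for Itgam and Itga4. The pairs that form Mac-1 and the α4β7 receptor were thus more alike in pattern than the pair that forms VLA-4. Likeness was not confined to partners, as r was 0.50 for Itgam and Itgal and 0.34 for Itgal and Itgb7.

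Lists of 20 other integrin chains, 12 ligands and 21 activating or linking proteins were read with the same rule. None of the 15, 11 and 19 measured genes was called over all cells of the library labelled Mll3, where 97 of all 14550 genes were. For the library labelled Mll4, 4 of 15 other chains were higher, 3 of 11 ligands higher and 1 lower, and 2 of 19 activating genes higher, with medians of 0.16, -0.14 and 0.24 beside 0.02 over all genes. Over all genes 5.74% were called higher and 2.91% lower there. The collagen receptor chain Itga1 was at 2.24 CPM in control against 34.1 CPM in the library labelled Mll4 over all cells. Within monocyte/macrophage progenitor-like cells it was at 26.6 and 247 CPM, where 5.87% of all genes were called higher, and within granulocyte progenitor-like cells at 10.0 and 110.2 CPM, where 7.81% were. In monocyte/macrophage progenitor-like cells the ligand genes Fn1, for fibronectin, and Vcam1 were also called higher, at 0.651 and 20.7 CPM (5 and 68 UMIs) and at 5.34 and 21.1 CPM. Cdh1 was called higher too, at 1.30 and 6.41 CPM (10 and 21 UMIs). Icam2, a ligand of LFA-1, was called lower at 47.2 and 21.1 CPM, where 3.21% of all genes were. Cells of this class lay mostly in different finer clusters in control and in the library labelled Mll4, and the part of this in these ratios was not tested.

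In B-cell progenitor-like cells of the library labelled Mll3/4 1 of 9 measured other chains was higher and 1 lower, 3 of 8 ligands higher and 2 lower, and 1 of 19 activating genes higher and 5 lower, where 9.45% of all genes were called higher and 7.39% lower. The medians were -0.21, -0.49 and -0.57 beside 0.02 over all genes. Fermt3, the kindlin that activates β2 integrins in blood cells, was at 80.5 CPM in control against 24.4 CPM in the library labelled Mll3/4. Rassf5, a Rap1 effector that acts on LFA-1, was at 56.9 and 22.1 CPM, and Parvb, a linker to actin, at 12.3 and 0.290 CPM. Fermt2, the kindlin of most other tissues, was at 0 UMIs in control and 234 UMIs in the library labelled Mll3/4 (3.08 CPM), whose 3-count floor in control was 0.943 CPM. Among the ligands Icam2 was at 36.5 and 15.5 CPM, complement C3, a ligand of Mac-1, at 6.91 and 0.250 CPM, and Jam2, a ligand of VLA-4, at 0.943 and 4.68 CPM (3 and 355 UMIs). C3 was at 690.1 CPM in control neutrophil-like cells, and at 30.9 CPM in B-cell progenitor-like cells of the library labelled Mll4. The neutrophil markers were at 1336 CPM in B-cell progenitor-like cells of control, 3966.5 CPM in those of the library labelled Mll4 and 40.8 CPM in those of the library labelled Mll3/4. Their part in the C3 values was not tested. Among the other chains Itga9, a relative of Itga4, had 0 UMIs in control, where 3 counts are 0.943 CPM, and 144 in the library labelled Mll3/4 (1.90 CPM).

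Over all cells of that library 2 of 16 other chains were higher and 5 lower, 1 of 11 ligands higher and 4 lower, and 3 of 20 activating genes higher and 5 lower, where 12.0% of all genes were called higher and 11.7% lower. The platelet chain Itga2b was at 30.02 CPM in control against 0.361 CPM in the library labelled Mll3/4, and its partner Itgb3 at 5.27 and 0.270 CPM. Rasgrp2, an activator of Rap1, was at 104 and 865 CPM, and B-cell progenitor-like cells alone had 501 and 881 CPM. The share of megakaryocyte-like cells was 10.6% in control and 0.101% there, and the part of this makeup in those sums was not tested.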

How the data were processed

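Transcripts and antibodies were counted in single cells of 4 libraries, 1 per group. The deposited values are raw counts of UMIs per feature and cell, made by the authors with Cell Ranger 6.1.2 and mm10, per the submitters' processing notes. Cells with at least 500 genes, at least 1000 UMIs and at most 10% mitochondrial UMIs were kept, and the cells of highest Scrublet score were removed as doublets at 0.8% per 1000 barcodes. Cells were clustered with scanpy 1.11.5 (30 components, 15 neighbours, Leiden resolution 1) on 1993 variable genes without the 6 integrin genes, and clusters were named from marker lists. Counts were summed per class and library, with 95% Poisson, binomial and conditional binomial intervals for levels, shares and ratios. Differences from the sum of the single log2 ratios had intervals by the delta method, a normal approximation that is rough at few UMIs. UMIs are counted molecules, and the intervals cover counting error only. A call needed a 2-fold ratio with a pseudocount of 1 CPM and 20 UMIs in either library. With 1 library per group no test across samples was possible. Trimmed-mean factors came from edgeR 4.0.16 in R 4.3.3. The scripts were tested on simulated data. Always named were the 6 members, the 3 genes closest to each in pattern among genes reaching 20 CPM, and up to 4 genes per pathway list by size of ratio. Of the genes closest in pattern, 1 is not reported here. Members and lists were chosen with earlier results of these data known. Genes that describe clusters (Retnlg, Mmp8, Mki67, Kit, Cma1 and Mcpt8) were chosen after their values were seen.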

Additional observations from a re-analysis of the deposited data

Results flagged for a closer look

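Itgam of the library labelled Mll4 lay on opposite sides of control in different classes, as log2 ratios without a pseudocount whose counting intervals excluded 0. It was lower in HSC/MPP-like cells (-0.97), granulocyte progenitor-like cells (-1.03) and monocyte/macrophage progenitor-like cells (-0.98). It was higher in erythroid progenitor-like cells (2.81) and megakaryocyte-like cells (1.33). The difference between classes was not tested, since each class comes from 1 library per group. The 8 neutrophil markers were higher in that library in all 5 classes, for example at 1891 against 575 CPM in megakaryocyte-like cells, and their part was not tested.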

How the results depend on the processing

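No paired analysis was possible because each group is 1 library. Of the counts of called ratios and the CD11b values, 18 alternative values moved and 71 did not, and of the single ratios 101 moved, 1 reversed and 538 did not. The within-class count of the library labelled Mll3 went from 1 to 0 without doublet removal, with the members kept in the clustering, with random seed 1, with a minimum of 100 UMIs and with a pseudocount of 10 CPM, and to 2 at Leiden resolution 2. That of the library labelled Mll4 went from 12 to 7 with cells thinned to 2000 UMIs, 7 with a minimum of 100 UMIs and 4 with a pseudocount of 10 CPM, and its count over all cells from 2 to 1 when thinned. That of the library labelled Mll3/4 went from 3 to 1 with a minimum of 100 UMIs. Itgb7 in megakaryocyte-like cells of the library labelled Mll4 reversed from -1.05 to 1.67 (log2) when thinned, from 2 UMIs before thinning. With a CD11b threshold of 20.6 counts, the 99th percentile of erythroid progenitor-like control cells, the positive shares were 31.6%, 24.1%, 54.5% and 0.781% in control, the library labelled Mll3, the library labelled Mll4 and the library labelled Mll3/4. Without doublet removal they were 21.4% in the library labelled Mll3 and 53.9% in the library labelled Mll4, which was also at 53.9% with at least 2000 UMIs per cell. A threshold fitted in the library labelled Mll3/4 alone came to under 1 count and gave no value. In B-cell progenitor-like cells of the library labelled Mll3/4 the log2 ratio of Itgam was -4.08, and -1.44 with a pseudocount of 10 CPM, a pseudocount near the control level of 17.3 CPM. Apart from these constructions the cause of each move was not tested. The median log2 ratio of all genes in B-cell progenitor-like cells was 0.02 in CPM and 0.12 after scaling by trimmed means.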
